A study of Mus musculus with 3 samples.

Results

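The genes described here mark Müller glia, the radial glial cells of the retina, and the reactive state that these cells enter after injury. They were taken by name, and each was read on the array probes whose RefSeq accession belongs to it. The set holds 31 genes, 13 of Müller identity and 18 of reactive gliosis, among 21366 named genes with a probe. All 31 had at least 1 probe, and 38 probes represented them. RNA came from mouse retinas dissected at postnatal day 12, with 1 array for the wild-type, 1 for retina labelled Otx2 KI and 1 for retina labelled Crx KO. KO usually stands for knockout and KI for knock-in. The altered exons, the locus of the knock-in, the strain and the number of pooled animals are not given in the sources used here. Crx and Otx2 are homeodomain transcription factors of the same family, and Crx is known for switching on genes of rods and cones.

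Müller cells span the whole depth of the retina and ensheathe its neurons. They clear glutamate from synapses, convert it to glutamine, and handle potassium, water, carbon dioxide and lipids for the neurons beside them. When photoreceptors are stressed, injury signals such as endothelin 2 and the cytokine LIF are known to act on these cells. Signalling through gp130 receptors and STAT3 then raises intermediate filament and acute phase genes, of which Gfap is the usual histological marker. The design compares the expression profiles of the 3 genotypes. These genes show that comparison for markers of the glia, read in RNA of whole retina, where other cells also make some of them.

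Values are scaled signals, that is Cy3 intensities put on the scale of the wild-type array by the 75th percentile of each array. Each genotype has 1 array, which leaves no replicates and no test across samples. A difference was therefore called only by its size, from 2-fold upward (1 on the log2 scale). Where 3 values follow each other, they stand in the order wild-type, Otx2 KI, Crx KO. The error model of the scanner software had a median of 0.20 for the log2 difference of a gene in each comparison, and probes printed at 10 spots had a median SD of 0.063 to 0.065 between spots. Neither error covers the spread between mice. Of all genes measured on both arrays, 1.35% were 2-fold or more higher and 2.53% lower in Otx2 KI than in wild-type (15809 genes). In Crx KO 1.95% were higher and 3.43% lower (16050 genes). The number of arrays limits the precision.

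The identity genes lay close to wild-type in both mutant arrays. All 13 were well above background on every array, so the defining products of Müller cells were present in each RNA. In Otx2 KI 0 of 13 were past 2-fold, and the median log2 difference was 0.12 beside 0.03 over all genes. There 11 lay above wild-type and 2 below, while 55.3% of all genes lay above it. Several of the 11 were within the error model of 0.2, such as Glul (0.05), Clu (0.06) and Id1 (0.04). In Crx KO 0 of 13 were past 2-fold, and the median was 0.09 beside -0.01. There 8 lay above and 5 below, while 48.5% of all genes lay above. Over all genes 3.88% and 5.38% were past 2-fold in either direction, so both counts of 0 are near the background. At 1.5-fold Car2 was the 1 identity gene higher in each mutant array, beside 3.66% of all genes in Otx2 KI and 5.02% in Crx KO, and 0 were lower. In RNA of whole retina, fewer cells of a type and less RNA per cell cannot be told apart.

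**Figure D1:**
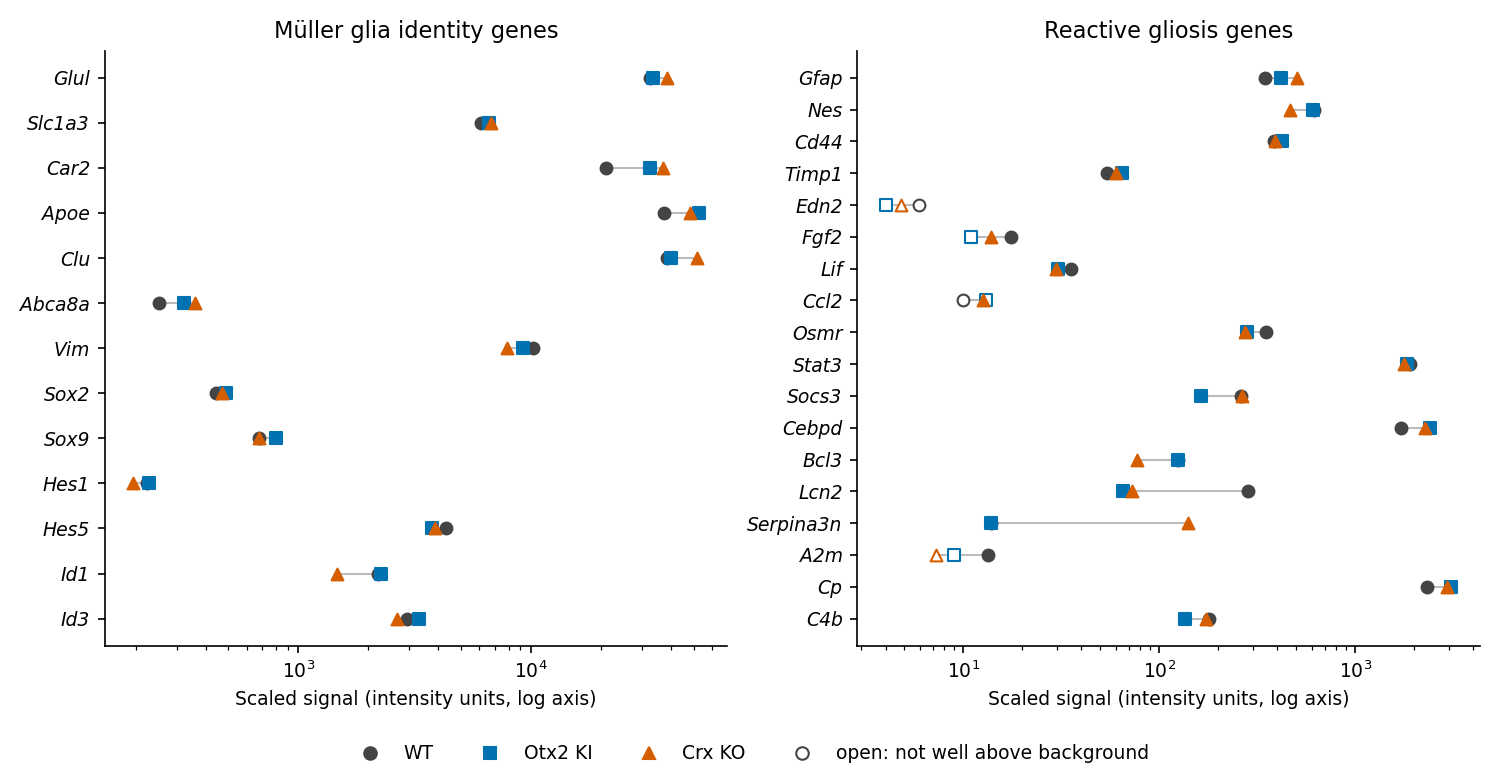
Scaled signal (log axis, intensity units) of each identity gene (left) and reactive gene (right) for wild-type (circle), Otx2 KI (square) and Crx KO (triangle), 1 probe per gene, with open symbols where the probe was not well above background. Levels compare arrays within a gene, not genes with each other. Most genes have their 3 symbols close together, while Lcn2 (283.1, 65.6 and 72.6) and Serpina3n (13.9, 13.9 and 140.3, with the wild-type circle hidden under the square) are spread widely.

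Among genes of glutamate and carbonate handling, the largest difference was in Car2. Car2, the cytosolic carbonic anhydrase of Müller cells, read 21052 in wild-type against 32534 for Otx2 KI and 36676 for Crx KO. Both mutant arrays were above wild-type, by 1.55-fold (log2 0.63, error model 0.20) and 1.74-fold (log2 0.80, error model 0.20). Only 3.26% of genes in Otx2 KI and 2.96% in Crx KO stood higher than Car2 against wild-type. Glul, the glutamine synthetase that converts the glutamate taken up, read 32325, 33488 and 38458 in wild-type, Otx2 KI and Crx KO. Its differences of log2 0.05 and 0.25 were at most little beyond the error model. Slc1a3, the glutamate transporter of Müller cells, read 6062, 6592 and 6739, and both of its differences (0.12 and 0.15) were within the error model.

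All 3 lipid genes were above wild-type in both mutant arrays, beside 55.3% of all genes in Otx2 KI and 48.5% in Crx KO. Apoe, the apolipoprotein E with which glia export lipid, read 37277 in wild-type against 52503 for Otx2 KI and 48086 for Crx KO, or 1.41-fold and 1.29-fold higher. Its probe was printed at 10 spots. The wild-type spots lay between 36335.9 and 38211.5, the Otx2 KI spots between 50253.2 and 54251.6 and the Crx KO spots between 46573.2 and 49581.8. The spots of the 3 arrays therefore did not overlap, and the SE of the log2 difference from spots alone was 0.018 for Otx2 KI (0.49) and 0.014 for Crx KO (0.37). Spots are repeats within 1 array, and how often the spots of other genes separate is not given here. The separation therefore does not set Apoe apart from other genes. Clu, the secreted chaperone clusterin, read 38442, 39997 and 51525 in wild-type, Otx2 KI and Crx KO. Crx KO stood apart, at log2 0.42 above wild-type, while the 0.06 for Otx2 KI was within the error model of 0.2. Abca8a, a transporter of the ABCA family, read 251.4, 324.1 and 360.2, with differences of 0.37 and 0.52.

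Apoe is also made by microglia. Of 8 microglial genes 7 lay above wild-type in Otx2 KI (median 0.12) and 3 in Crx KO (median -0.31), beside 55.3% and 48.5% of all genes. In either array 0 were past 2-fold, and all 8 were well above background on all arrays. Cx3cr1, the fractalkine receptor, read 1329, 1447 and 997.4. Itgam, an integrin of myeloid cells, had the largest difference of the list (log2 0.48 and 0.55), although its 2 other probes gave -0.19 and -0.29 in Otx2 KI and -0.19 and -0.24 in Crx KO. The part of microglia in the Apoe signal was not tested.

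Vim, the intermediate filament of Müller cells, was below wild-type in both arrays. It read 10166 in wild-type against 9247 for Otx2 KI and 7906 for Crx KO, which is log2 -0.14 and -0.36, with the Crx KO value beyond the error model of 0.20. Vimentin is also made by vessel cells. All 5 vessel markers lay below wild-type in both arrays, while 55.3% of all genes in Otx2 KI and 48.5% in Crx KO lay above it. The vessel medians were -0.20 in Otx2 KI and -0.41 in Crx KO, where the endothelial cadherin Cdh5 stood at -0.59. The part of vessel cells in the Vim difference was not tested.

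The 6 transcription regulators lay close to wild-type. In Otx2 KI 5 of 6 lay above it (median 0.10), beside 55.3% of all genes, and in Crx KO 2 of 6 (median -0.15), beside 48.5%. Sox9 in Otx2 KI and Id1 in Crx KO were beyond the error model of 0.20, and the other differences were 0.20 or smaller in size. Sox9, a factor that maintains Müller cells, read 675.6 in wild-type against 803.3 for Otx2 KI and 681.0 for Crx KO, and Otx2 KI was the array that stood apart. Over its replicate spots, wild-type ranged from 640.1 to 712.2 and Crx KO from 630.9 to 716.6, which overlap, while Otx2 KI ranged from 764.4 to 850.1 and overlapped with neither. The log2 difference in Otx2 KI was 0.25 with a spot SE of 0.026, which covers repeats within 1 array only, as for Apoe. Sox2, which keeps Müller cells in their quiescent state, read 442.2, 490.5 and 470.9, with both differences (0.15 and 0.09) within the error model.

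Id1 and Id3, inhibitors of helix-loop-helix factors and common targets of BMP signalling, were lowest in Crx KO. Id1 read 2190 in wild-type against 2255 for Otx2 KI and 1463 for Crx KO, so the Crx KO array alone was low. It was just under 1.5-fold below wild-type (log2 -0.58) and 1.54-fold below Otx2 KI (log2 0.62 for Otx2 KI minus Crx KO), and 8.31% of genes stood lower against wild-type. Id3 read 2940, 3284 and 2652, with -0.15 in Crx KO and 0.16 in Otx2 KI. The Notch effectors Hes1 and Hes5 differed little. Hes1 read 223.1, 229.3 and 194.8 (log2 0.04 and -0.20), and Hes5 read 4311, 3744 and 3868 (log2 -0.20 and -0.16).

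**Figure D2:**
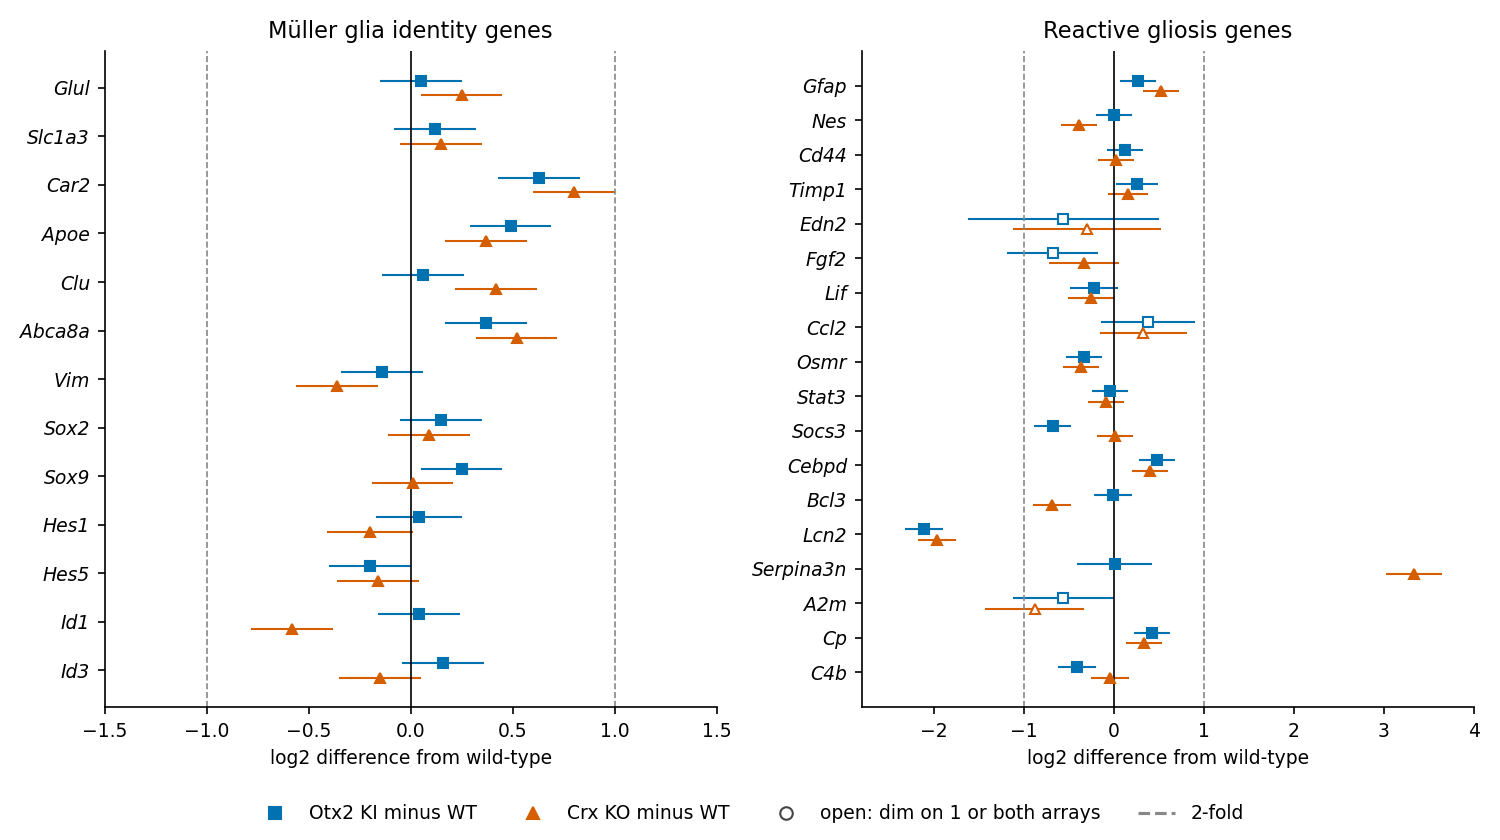
Difference of Otx2 KI (squares) and Crx KO (triangles) from wild-type on the log2 scale for each identity gene (left) and reactive gene (right). Bars are the scanner software's error model, which covers measurement and not animals. Open symbols mark genes dim on 1 or both arrays, and dashed lines mark 2-fold. The identity genes lie between -0.58 and 0.80, and only Lcn2 (both arrays) and Serpina3n (Crx KO) are past 2-fold.

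**Figure D3:**
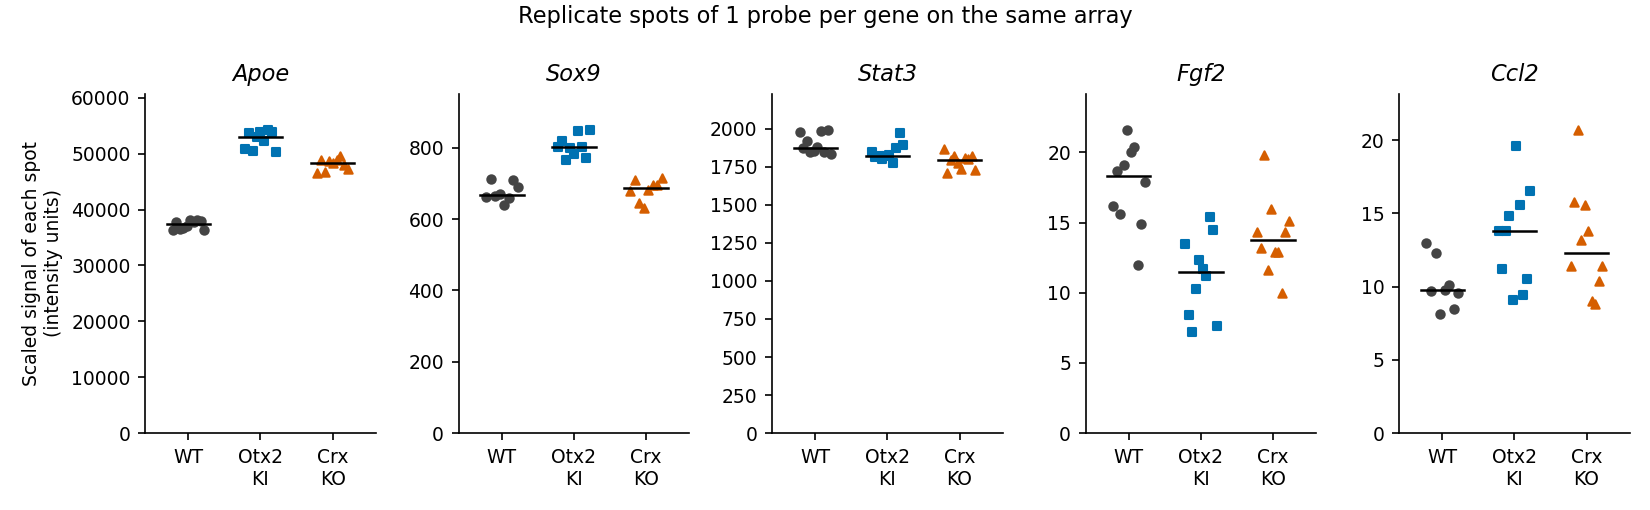
Scaled signal of each replicate spot for the 5 members whose probe was printed at 10 spots, with outlier spots left out, on each of the 3 arrays. Bars are medians, and spots are repeats within 1 array, not animals. Apoe spots are separate on the 3 arrays, Sox9 spots are separate only for Otx2 KI, and Stat3, Fgf2 and Ccl2 spots overlap. How often spots of other genes separate is not given.

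The medians of the reactive genes also stayed near wild-type, but Lcn2 in both mutant arrays and Serpina3n in Crx KO lay far from it. In Otx2 KI 14 of 18 were measured on both arrays, and the median was -0.01 beside 0.03 over all genes. Of these 14, 0 were 2-fold or more higher and 1 lower (Lcn2, log2 -2.11), beside 1.35% and 2.53% of all genes. In Crx KO 15 were measured, and the median was -0.04 beside -0.01. Of these 15, 1 was higher (Serpina3n, log2 3.34) and 1 lower (Lcn2, log2 -1.96), beside 1.95% and 3.43% of all genes. Endothelin 2 was not well above background anywhere. Fgf2, A2m and Ccl2 were dim on some arrays, and 14 members were well above background on all 3. The counts cover the measured members, not all 18. At 1.5-fold the lower reactive genes were Lcn2 and Socs3 in Otx2 KI, beside 6.35% of all genes, and Lcn2 and Bcl3 in Crx KO, beside 8.25%.

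Of the filament and matrix genes, Gfap was above wild-type in both mutant arrays. Gfap, the intermediate filament of astrocytes and of reactive Müller cells, read 347.8 in wild-type against 420.3 for Otx2 KI and 503.7 for Crx KO on its brightest probe. The 3 arrays stood in that order, at 1.21-fold (log2 0.27) and 1.45-fold (log2 0.53) above wild-type. Its second probe gave 216.0, 258.0 and 311.5, and the third, near background, 14.0, 20.3 and 20.3. In Crx KO all 3 probes gave log2 0.53, and in Otx2 KI they gave 0.27, 0.26 and 0.53. In Crx KO 5.88% of all genes stood higher than Gfap and in Otx2 KI 13.3%. Astrocytes make Gfap without injury. Of 5 astrocyte markers 4 lay above wild-type in each array, with medians of 0.26 in Otx2 KI and 0.20 in Crx KO. Over all genes 55.3% and 48.5% lay above wild-type. Pax2, a transcription factor of retinal astrocytes, read 27.7, 21.6 and 25.2. The part of astrocytes in the Gfap difference was not tested.

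The other filament and matrix genes were within 2-fold of wild-type. Nes, the progenitor filament nestin that reactive glia can make again, read 613.1, 611.0 and 466.4. Crx KO alone was low (log2 -0.39), beyond the error model of 0.2. Cd44, the hyaluronan receptor, read 386.2, 422.7 and 390.8 (log2 0.13 and 0.02). Its second measured probe gave 0.44 and 0.11, and the remaining 2 of its 4 probes were not well above background. Timp1, an inhibitor of matrix metalloproteinases, read 54.1, 64.7 and 60.3 (log2 0.26 and 0.16, with error models of 0.23 and 0.22).

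The injury ligands were dim on these arrays. Edn2, which stressed photoreceptors are known to release, read 5.9, 4.0 and 4.8 and was not well above background in any genotype, so no fold is given. Fgf2, a growth factor that protects photoreceptors, read 17.4 in wild-type against 10.9 for Otx2 KI and 13.8 for Crx KO. Of its 10 spots, 9 were well above background in wild-type against 0 for Otx2 KI and 9 for Crx KO. Crx KO stood at log2 -0.33, within the error model of 0.39, with a spot SE of 0.116 and spots that overlapped those of wild-type. The wild-type signal was at least 1.40-fold that of Otx2 KI, taking the dim array at the lowest signal well above background (12.4). Such at-least folds use the higher of that floor and the gene's own signal, and they do not allow for measurement error. Lif, the cytokine that Müller cells make after photoreceptor injury, read 35.2, 30.3 and 29.6 (log2 -0.22 and -0.25, within error models of 0.27 and 0.26). Ccl2, a chemokine that draws monocytes, had median spot signals of 9.7, 13.8 and 12.3, with 0 of 8 spots well above background in wild-type, 4 of 10 in Otx2 KI and 6 of 10 in Crx KO. It was at least 1.24-fold higher in Crx KO than in wild-type by this measure. The log2 difference of 0.33 was within its error model of 0.48, and the spots of the arrays overlapped. Lif was thus the only ligand of the 4 that was well above background on all 3 arrays.

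The 5 cytokine signalling genes lay on both sides of wild-type, 1 above and 4 below in Otx2 KI, and 2 above and 3 below in Crx KO. Over all genes 55.3% and 48.5% lay above wild-type. Osmr, the oncostatin M receptor that pairs with gp130, read 351.2, 279.6 and 274.4, so both mutant arrays were below wild-type by similar amounts (log2 -0.33 and -0.36). Stat3, the transcription factor downstream of gp130, read 1898, 1843 and 1784, and the spots of the 3 arrays overlapped. Its log2 differences were -0.04 and -0.09 with a spot SE of 0.020 in each, and the second probe gave -0.13 in both. Cebpd, a transcription factor of the acute phase response, read 1714, 2395 and 2264, with both mutant arrays above wild-type (1.40-fold and 1.32-fold, log2 0.48 and 0.40).

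Socs3 and Bcl3 each stood apart on a different array. Socs3, the feedback inhibitor that STAT3 induces, read 262.7 in wild-type against 163.7 for Otx2 KI and 265.3 for Crx KO. The Otx2 KI array alone was low, by 1.60-fold (log2 -0.68, error model 0.21), and 5.07% of genes stood lower. Bcl3, an atypical inhibitor of NF-kappaB, read 124.6, 124.2 and 77.3, and here the Crx KO array alone was low, by 1.61-fold (log2 -0.69, error model 0.21). With normexp background correction the Bcl3 difference was -0.41.

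The promoters of Gfap and Socs3 are shown because they hold the letters TTCNNNGAA, the core recognised by STAT factors, in the window from 250 bases before to 50 after the annotated start. The sequences are from RefSeq on build GRCm38.p6, at chr11:102897151-102897450 on the minus strand for Gfap and chr11:117969317-117969616 on the minus strand for Socs3. They run 5′ to 3′ along the gene, and capitals mark the match.
Gfap: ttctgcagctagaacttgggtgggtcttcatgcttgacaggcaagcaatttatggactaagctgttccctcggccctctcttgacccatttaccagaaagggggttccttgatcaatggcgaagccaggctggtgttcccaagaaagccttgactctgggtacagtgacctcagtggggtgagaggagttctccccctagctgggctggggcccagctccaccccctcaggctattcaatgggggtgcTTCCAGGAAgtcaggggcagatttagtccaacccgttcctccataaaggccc
Socs3: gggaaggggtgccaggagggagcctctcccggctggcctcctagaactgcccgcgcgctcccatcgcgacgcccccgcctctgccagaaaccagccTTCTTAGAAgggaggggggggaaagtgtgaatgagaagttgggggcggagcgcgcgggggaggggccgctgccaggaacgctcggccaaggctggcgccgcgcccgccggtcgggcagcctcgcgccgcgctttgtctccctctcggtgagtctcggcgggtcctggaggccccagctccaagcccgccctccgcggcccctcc
The motif reads the same on either strand. It was found in 3 of the 22 members in the promoter table (Slc1a3 is the other) and in 8.3% of all 32851 promoters. Gfap and Socs3 share the motif but differed in their values, since Gfap stood above wild-type in both mutant arrays and Socs3 stood below it in Otx2 KI. GTGGGAA, the core for the Notch effector RBPJ, was found on either strand in 3 members (Hes5, Lif and Abca8a) and in 6.38% of promoters. TAATCC, the core for Crx and Otx2, was found on either strand in 1 member (Apoe) and in 7.06% of promoters. A match is a description of letters and does not show binding.

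The acute phase genes held both members past 2-fold. Lcn2, the iron-siderophore carrier lipocalin 2, read 283.1 in wild-type against 65.6 for Otx2 KI and 72.6 for Crx KO. Both mutant arrays were low, by 4.32-fold (log2 -2.11, error model 0.21) and 3.90-fold (log2 -1.96, error model 0.21), and they differed from each other by 1.11-fold. Both folds are taken against the same single wild-type reading. Only 0.62% and 0.835% of all genes stood lower, and among genes of like mean signal (within 0.5 on the log2 scale) 4.74% and 7.13% were past 2-fold in either direction. With normexp the differences were -1.35 and -1.33.

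Serpina3n, a secreted serine protease inhibitor and a standard marker of reactive astrocytes, read 13.9 in wild-type against 13.9 for Otx2 KI and 140.3 for Crx KO. Crx KO alone was high, at 10.1-fold above wild-type (log2 3.34, error model 0.31) and 10.1-fold above Otx2 KI (log2 -3.33 for Otx2 KI minus Crx KO). Against wild-type 0.118% of genes stood higher, and 9.54% of 1132 genes of like mean signal were past 2-fold in either direction. The wild-type and Otx2 KI readings lay just above the lowest signals well above background (10.2 and 12.4), and with normexp the difference from wild-type was 1.46. The gene has 1 probe here. Of the other genes of its clade, 9 had a probe and 4 were measured in both Crx KO and wild-type, with differences from -0.48 to 0.25. Serpina3i, dim in wild-type, was at least 1.44-fold higher in Crx KO on 1 probe, which read 14.6 there with a log2 error model of 1.47. Its second probe read 5.4, 6.3 and 2.6 and was not well above background on any array. This clade was listed after the values were seen, and what the Serpina3n probe shares in sequence with its relatives was not tested.

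The 3 other acute phase members were within 2-fold where measured. Cp, the copper oxidase ceruloplasmin, read 2314, 3100 and 2930, with both mutant arrays above wild-type (log2 0.42 and 0.34). Its second probe gave 0.36 and 0.10. C4b, the complement component, read 178.8, 134.9 and 174.0, with Otx2 KI alone low (log2 -0.41). A2m, the protease inhibitor alpha-2-macroglobulin, read 13.3, 9.0 and 7.2 and was well above background only in wild-type, at least 1.07-fold over Otx2 KI and 1.60-fold over Crx KO.

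The promoters of the members past 2-fold are shown in the same window, as the genes whose values differed most. Lcn2 lies at chr2:32387690-32387989 on the minus strand and Serpina3n at chr12:104406458-104406757 on the plus strand (RefSeq, GRCm38.p6).
Lcn2: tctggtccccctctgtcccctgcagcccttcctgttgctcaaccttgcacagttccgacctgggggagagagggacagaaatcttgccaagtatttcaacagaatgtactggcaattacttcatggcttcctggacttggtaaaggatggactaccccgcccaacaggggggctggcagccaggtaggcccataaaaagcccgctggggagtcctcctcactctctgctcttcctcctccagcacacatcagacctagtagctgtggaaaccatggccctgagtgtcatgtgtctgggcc
Serpina3n: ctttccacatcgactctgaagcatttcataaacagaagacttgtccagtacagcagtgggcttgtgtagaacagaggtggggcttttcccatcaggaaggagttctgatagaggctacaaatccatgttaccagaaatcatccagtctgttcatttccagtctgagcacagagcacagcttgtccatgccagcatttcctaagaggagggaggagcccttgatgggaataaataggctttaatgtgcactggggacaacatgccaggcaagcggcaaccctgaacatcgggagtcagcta
None of the 3 motifs searched was found in either window, so neither sequence has capitals. This says only that these letters are not in these 300 bases.

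Markers of neighbouring cells differed beside Lcn2 and Serpina3n. All 5 pigment epithelium genes lay below wild-type in both arrays, with 2 past 2-fold in Otx2 KI (median -0.97) and 3 in Crx KO (median -1.61). Over all genes 2.53% and 3.43% were 2-fold or more lower. Lrat, the retinoid-esterifying enzyme, stood at -1.09 and -2.45, Ttr, which carries thyroxine and retinol-binding protein, at -1.20 and -1.61, and the melanosome gene Pmel at -0.97 and -1.97. The blood genes Hba-a1 and Alas2 lay at -0.66 and -0.68 in Otx2 KI and -0.52 and -0.73 in Crx KO, and the leukocyte gene Ptprc was not well above background in wild-type or Otx2 KI. The part of these cells in the Lcn2 difference was not tested.

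**Figure D4:**
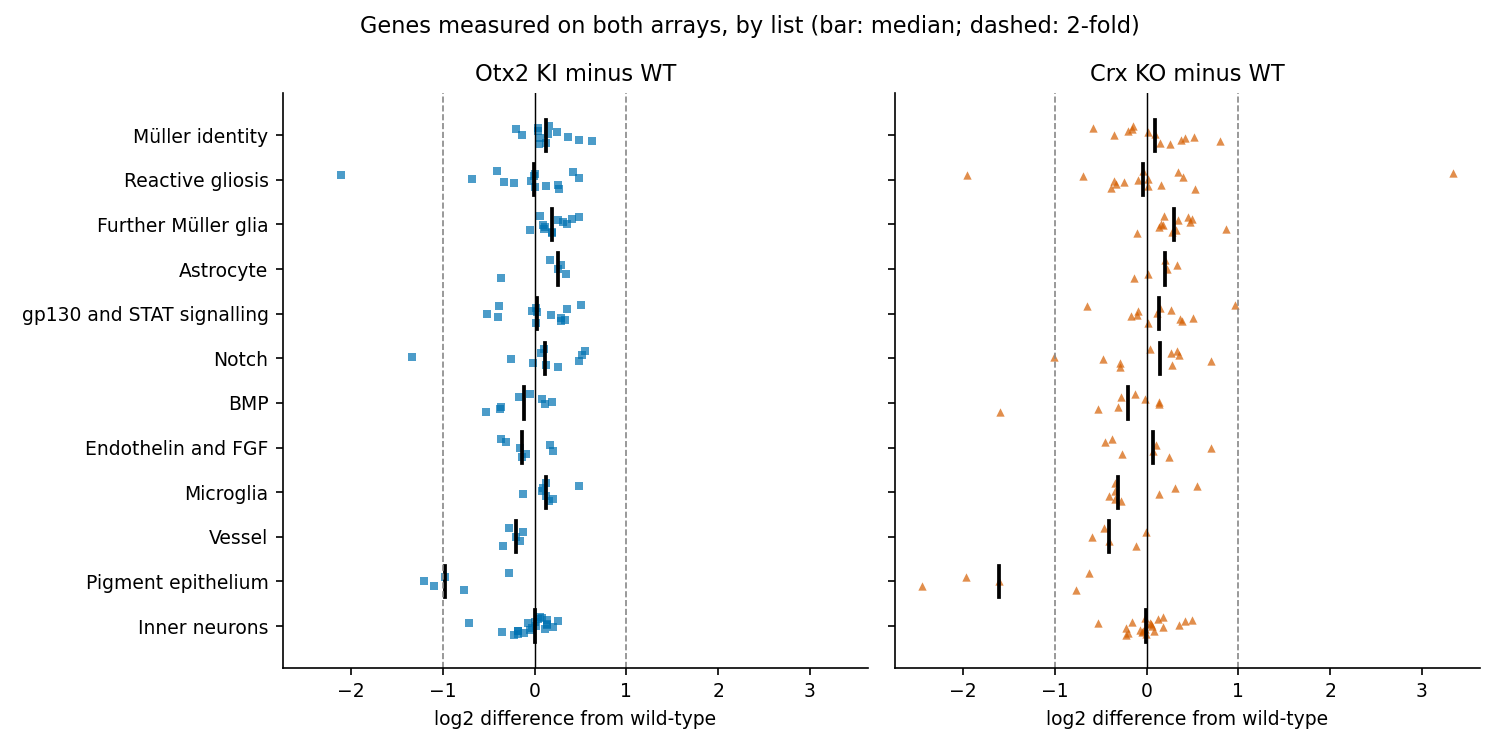
Difference of Otx2 KI (left) and Crx KO (right) from wild-type on the log2 scale for the genes measured on both arrays, by list. Each point is a gene, black bars are list medians and dashed lines mark 2-fold. The identity list (medians 0.12 and 0.09) and the further Müller list (0.19 and 0.30) lie within 2-fold, with 11 of 12 further Müller genes above 0 in each panel. The pigment epithelium list (-0.97 and -1.61) lies lowest.

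A further list of 12 Müller glia genes also lay within 2-fold of wild-type. In each mutant array 11 of 12 lay above wild-type, beside 55.3% of all genes in Otx2 KI and 48.5% in Crx KO, and 0 were past 2-fold. The medians were 0.19 and 0.30, beside 0.03 and -0.01 over all genes. Prdx6, a peroxiredoxin, had the largest difference in Otx2 KI (18541, 26059 and 25259, log2 0.49 and 0.45), and its 3 other probes gave 0.58 to 0.64 there and -0.05 to 0.64 in Crx KO. Kcnj10, the potassium channel Kir4.1 of Müller cells, had the largest in Crx KO (3041, 3257 and 5565, log2 0.87), where it stood apart from both other arrays. The retinaldehyde-binding protein gene Rlbp1 read 13835, 15737 and 12875. The photoreceptor genes Gnat1, Rcvrn, Opn1mw and Pde6a lay between -6.95 and -5.51 in Otx2 KI and between -7.08 and -3.85 in Crx KO. A list of 21 inner retinal neuron genes, added after the values were seen, had 0 past 2-fold in either mutant array. Its medians were -0.0 in Otx2 KI and -0.01 in Crx KO.

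Receptors and kinases of the gp130 pathway were close to wild-type. Of 14 genes, 13 were measured in Otx2 KI and 12 in Crx KO, with 0 past 2-fold in either and medians of 0.03 and 0.13. The shared receptor Il6st read 1047, 1063 and 1061. Pim1, a kinase gene that STAT factors induce, read 33.1, 47.3 and 64.3 (log2 0.51 and 0.96), so the arrays stood in the same order as for Gfap. The cytokine gene Osm read 24.2, 16.8 and 9.5 and was dim in Crx KO, at least 2.55-fold below wild-type, and had the largest difference in Otx2 KI (log2 -0.52). Il6 was not well above background anywhere.

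In the Notch list 1 of 10 genes was past 2-fold in each array, with medians of 0.11 and 0.15. It was Jag1, a Notch ligand, which read 1528 in wild-type against 602.6 for Otx2 KI and 759.9 for Crx KO (log2 -1.34 and -1.01). Both mutant arrays were low. In Otx2 KI 7 of the list lay above wild-type and 3 below, and in Crx KO 6 above and 4 below. Over all genes 55.3% and 48.5% lay above it. Of the ligands, Dll1 lay above (0.49 and 0.70) and Dll4 below (-0.26 and -0.48, error model 0.24). The effectors Hey1 (0.52 and 0.35) and Heyl (0.55 and 0.33) were higher, like Dll1 beyond their error models of 0.20 or 0.21. The effector Hey2 stood at 0.07 and 0.27. In the BMP list 0 of 8 genes were past 2-fold in Otx2 KI and 1 in Crx KO, with medians of -0.11 and -0.20. Bmp4, a BMP ligand, read 316.1, 219.2 and 104.3 (log2 -0.53 and -1.60), and was the lowest of the list in Crx KO, where Id1 was low as well. Of the other Id genes, Id2 and Id4 stood at 0.14 and -0.02 there. Bmp4 is also a gene of the pigmented tissue beside the retina, whose markers were lower too, and that part was not tested. In the endothelin and FGF list 0 of 7 measured genes were past 2-fold, with medians of -0.14 and 0.07. Fgf1, an FGF ligand, read 2616, 2337 and 4248 (log2 -0.16 in Otx2 KI and 0.70 in Crx KO). Its second probe, near background, read 9.7, 17.3 and 14.5. It was at least 1.7-fold higher in Otx2 KI and 1.43-fold in Crx KO than in wild-type, where it was dim. Fgfr3, an FGF receptor, had the largest difference in Otx2 KI (log2 -0.37), although its second probe gave -0.01.

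In the comparison of Otx2 KI with Crx KO, 1 of 27 measured members differed by 2-fold or more, Serpina3n. Over all 15806 genes measured, Otx2 KI was higher at 0.677% and lower at 0.645%, or at 1.32% in either direction. The identity median was 0.06 and the reactive median 0.04, beside 0.04 over all genes. Beyond 1.5-fold, Id1 (log2 0.62) and Bcl3 (0.68) were higher in Otx2 KI, beside 2.44% of all genes, and Serpina3n and Socs3 (-0.70) were lower, beside 2.31%. Car2, Apoe and Lcn2, which stood on the same side of wild-type in both mutant arrays, differed between them by -0.17, 0.13 and -0.15, each within the error model of 0.20 to 0.22. Both comparisons with wild-type share the 1 wild-type array.

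**Figure D5:**
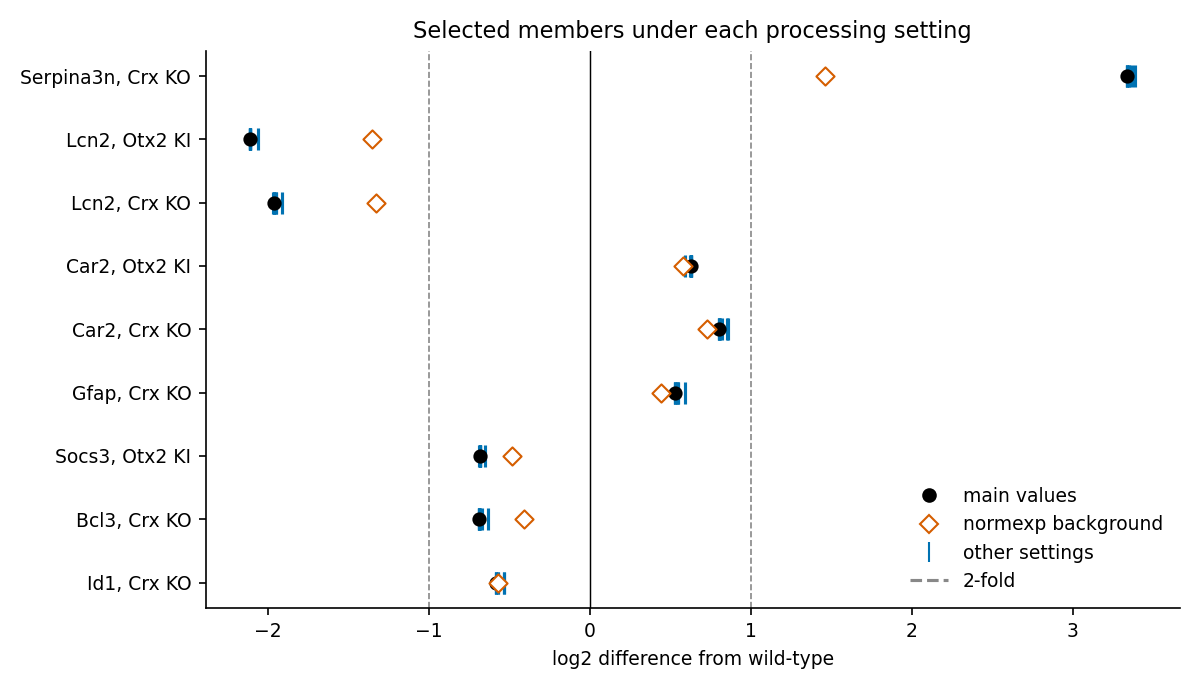
Difference from wild-type on the log2 scale for selected members under each processing setting, with black circles for the values in the text, open diamonds for normexp background correction and blue ticks for the other settings. Dashed lines mark 2-fold. Serpina3n in Crx KO goes from 3.34 to 1.46 with normexp and Lcn2 from -2.11 to -1.35 in Otx2 KI, while the other settings stay close to the values in the text.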

How the data were processed

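Total RNA of retina was hybridised to 1-colour Agilent arrays, 1 per genotype, all on 1 slide read in 1 scan. The deposited scanner files hold intensity values written by Agilent Feature Extraction 12.0.3.1, with an array design on build mm9, per the file headers. The processed signal, background-subtracted by that software, was used. The authors' deposited value table held the same intensity multiplied by 1 constant per array (2.49 in wild-type, 2.54 in Otx2 KI, 2.61 in Crx KO; column medians 129.8, 125.7 and 135.8). It is on a linear scale without centring, and the sources used here do not say where the constants come from.

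Control and outlier spots (136, 132 and 126) were left out, log2 values were reduced by each array's 75th percentile (574, 564 and 570), and spots of a probe were averaged. A probe was well above background when at least 0.5 of its spots were. Accessions were matched without versions to RefSeq genes of GRCm38.p6, which named 50.9% of 55681 probes. A gene was read on its probe with the highest mean, and counted as measured where both arrays of a comparison had that probe well above background. All members were named. Of the other lists, genes at 2-fold or more against wild-type and the member with the largest difference were named, with a few more chosen after their values were seen. Members and lists were chosen with earlier results of these data known. The steps were tested on simulated data. Alternatives changed the background correction (normexp, offset 50, on median signals because the files used here carry no mean signal), scaling, centring, probe choice, filter, outlier spots, threshold and value table. Centring on inner neuron genes was chosen after seeing the data. Python 3.11.15, numpy 2.4.6, pandas 2.3.3 and limma 3.58.1 were used.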

Additional observations from a re-analysis of the deposited data

How the results depend on the processing

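Under the alternatives run, counts of members past 2-fold did not change in any of the 3 comparisons, and no called difference changed sign. At a threshold of 1.5-fold, 1 identity gene was higher in each comparison and 2 reactive genes were lower in each, while 1 reactive gene was higher for Crx KO minus wild-type, as at 2-fold, 1 for Otx2 KI minus Crx KO and 0 for Otx2 KI minus wild-type. Of 82 member differences, 75 moved by less than the error model with normexp, and all 82 did so under each of the 7 other settings that keep the threshold. Several of these settings could move them little by design. Dropping the filter leaves measured values as they were, and probe averaging reaches only the 4 members with several probes. Centring and the value table shift all values of an array by about the same amount. The 7 that moved by more with normexp were Bcl3 in Crx KO (-0.41) and, for Otx2 KI minus Crx KO, Bcl3 (0.40), Socs3 (-0.41) and Serpina3n (-1.30), besides Serpina3n in Crx KO and Lcn2 in both mutant arrays. Serpina3n in Crx KO ranged from 1.46 to 3.39 and Lcn2 from -2.11 to -1.35 in Otx2 KI and from -1.97 to -1.33 in Crx KO. The smaller sizes came with normexp, which adds an offset of 50 to every signal, dim or bright. The part of this offset in the smaller sizes was not tested. No replicate could be left out. No paired analysis was possible because each genotype has 1 array. Genes near background, such as Serpina3n in wild-type, Fgf2, Ccl2, A2m and Edn2, are limited by signal over background.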

Other observations

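Cell cycle and lens markers, which belong to no comparison of the glial genes, differed between the mutant arrays. Ccnd1, the cyclin D1 gene, read 1707 in wild-type against 1901 for Otx2 KI and 1045 for Crx KO (log2 0.16 and -0.71). Mki67, a marker of dividing cells, read 179.3, 198.1 and 137.1, and Ccnb1, a mitotic cyclin, stood at log2 -0.39 and -1.20. The proliferation list had a median of 0.03 in Otx2 KI and, over 3 measured genes, -0.71 in Crx KO. Top2a, a topoisomerase of dividing cells, was dim in Crx KO and at least 2.32-fold below wild-type. Of 5 lens genes 3 were measured, all 3 past 2-fold higher in Otx2 KI (median 1.38) and 0 past 2-fold in Crx KO (median -0.76). The crystallin gene Cryaa read 106.2, 334.4 and 62.5, and the crystallin gene Crygs stood at log2 1.38 in Otx2 KI. The probes of Crygc disagreed: the brightest over all arrays gave 1.22 in Otx2 KI and 0.04 in Crx KO, while the others gave 1.08 and -0.25 in Otx2 KI and -0.53 and -1.52 in Crx KO. With the last of these probes Crygc is not past 2-fold in Otx2 KI and is past 2-fold lower in Crx KO.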
